A study of Homo sapiens with 6 samples.

Results

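Voltage-gated sodium and calcium channel subunits were followed as a gene family, chosen by symbol: every gene named SCN with a number and A or B, or CACNA, CACNB or CACNG with its own suffix. The deposited table held 39 such genes of 19823, of which 19 encode pore-forming subunits and 20 encode auxiliary subunits, and 14 belong to sodium channels and 25 to calcium channels. CACNA1F, a pore gene of the same family, was not analysed here. The symbol rule itself uses no measured value, but the family was chosen with earlier results of these data known. All 39 genes passed the limit on low values (more than 5 reads in at least 4 of the 6 samples).

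RNA-seq was performed on iNeurons, glutamatergic neurons differentiated from WTc11, an established human induced pluripotent stem cell line. The 3 untreated samples and the 3 samples treated with isoproterenol, an agonist of beta-adrenergic receptors that raises cAMP, all carried the RBM12 knockdown, so the single contrast asked how these genes respond to the agonist when RBM12 is depleted. The line is a clone that makes the neuronal factor NGN2 under a doxycycline-inducible promoter and carries dCas9-KRAB, the silencing protein of CRISPR interference, and its receptors are those it makes natively, at a low level according to the study. The labels give neither dose nor duration, and they do not say whether replicates came from separate cultures. The p-values therefore cannot be taken to measure spread between separate cultures.

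Sodium channels carry the rising phase of the action potential through a large pore-forming alpha subunit (SCN-A genes), while the small SCN-B proteins are membrane-spanning partners that adjust gating and placement of the channel. Calcium channels have an alpha1 pore (CACNA1 genes), an intracellular beta subunit (CACNB) and an extracellular alpha2delta subunit (CACNA2D), and the last 2 kinds help bring the pore to the membrane. The CACNG proteins were named for the gamma subunit of the muscle calcium channel, but several of them are known mainly as regulators of AMPA-type glutamate receptors. Protein kinase A, the kinase that cAMP activates, is known to phosphorylate several of these channels, and only transcript levels were measured here.

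Promoter sequence was examined because CREB, a transcription factor activated by cAMP signaling, binds the cAMP response element TGACGTCA and, more loosely, its core TGACG. A core on the opposite strand is read as CGTCA and was counted too. RefSeq promoter windows (GRCh38.p14, 250 bases before to 50 after a start) were found for 25 of the 39 genes, 39 windows in all. The other 14 genes include CACNA1G, CACNA1H, CACNA2D4, CACNG1, CACNG2, CACNG4, CACNG5, CACNG7, CACNG8, SCN3A, SCN3B and SCN4A. The full element, which contains the core on both strands, was in 0 of 39 windows, against 1.85% of 35116 windows of all genes. The core was in 6 windows (15.4%) of 5 genes, against 24.6% of all windows. By class, 1 of 18 windows of pore genes and 5 of 21 windows of auxiliary genes held it. The cores with 12 bases on each side are shown for CACNA2D1 and CACNB3, the most abundant genes of their subfamilies, and for CACNB2, the remaining match that lies wholly outside annotated exons, with the core in capitals. In the CACNB3 stretch, 5 bases are exonic. They lie at chr7:82443984-82444012 (minus strand), chr12:48814408-48814436 and chr10:18340624-18340652 (both plus strand).
CACNA2D1: gcccgactgctcTGACGcccagccctccc
CACNB3: gcttgtcctgttTGACGcacccgcagaaa
CACNB2: ttccaagccagcTGACGtaattcagagga

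SCN1A and CACNA2D3, whose changes are described further on, have windows with neither motif. The bases from 150 to 30 before a start of each are shown so that the absence can be read. They lie at chr2:166128051-166128170 (minus strand) for SCN1A and chr3:54122402-54122521 (plus strand) for CACNA2D3, and neither stretch overlaps an annotated exon.
SCN1A: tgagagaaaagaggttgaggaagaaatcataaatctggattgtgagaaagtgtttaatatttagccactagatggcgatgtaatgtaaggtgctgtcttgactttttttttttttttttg
CACNA2D3: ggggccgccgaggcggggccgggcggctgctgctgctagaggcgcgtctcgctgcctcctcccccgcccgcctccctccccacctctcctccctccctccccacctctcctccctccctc
A motif match is a description of these letters, not a binding site, and its absence from a window of this size says nothing about CREB.

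Depth was similar across samples, with 18116816 to 21488793 reads recovered per library. RBM12, the targeted gene, had 244.3, 278.7 and 266.9 normalized counts without and 194.6, 237.6 and 232.8 with isoproterenol. Libraries with a control guide were not analysed here, and these values do not check the extent of depletion; 575 exonic bases are shared with CPNE1. Summed markers of glutamatergic neurons (9 genes) were 61991 to 63305 normalized counts without and 60917 to 65151 with isoproterenol. Within this list GRIN1 was higher (log2 fold change 0.29, limma adjusted p 2.67e-04 with the replicate number as a block), and no other gene of it passed FDR 0.05. GABAergic markers (3 of 3 genes with a row) summed to 55.3 to 60.0 untreated and 66.9 to 79.0 treated, and astrocyte markers (2 of 5) to 159.8 to 175.1 and 134.4 to 156.8. Oligodendrocyte lineage markers (3 of 5) summed to 1047 to 1090 and 1101 to 1171, those of muscle (2 of 4) to 105.5 to 166.6 and 111.9 to 137.5, and those of pluripotent or dividing cells (2 of 5) to 19.4 to 19.8 and 14.4 to 28.8. None of the marker genes with a row was at 0 in all samples, and the others were not analysed here. The GABAergic, astrocyte and oligodendrocyte sums did not overlap between groups, but in the oligodendrocyte and GABAergic lists members differed in sign. MBP carried most of the oligodendrocyte sum with a log2 fold change of 0.13, against -0.25 for OLIG1 and -0.78 for OLIG2, and SLC32A1 had -0.38 against 0.74 for GAD1 and 0.49 for GAD2. None of these 6 genes passed FDR 0.05 with the block (limma), and their part in the channel results was not tested. In bulk RNA, fewer cells of a type and less RNA per cell cannot be told apart. A list of 6 immediate early genes summed to 2007 to 2368 untreated and 3522 to 6172 treated.

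The channel genes took 0.403% to 0.417% of all normalized counts in untreated samples and 0.415% to 0.428% in treated ones. Levels were compared between genes per kilobase of exon (normalized count divided by the summed length of all annotated exons of the gene). On this scale the family spanned a wide range, from SCN10A at 1.02 ± 0.614 to CACNG4 at 1692 ± 59.5 (SD, n = 6). In each subfamily, 1 or a few genes held most of the summed level. Only 3 of the 31 pairs of neighbours in rank within a subfamily had overlapping ranges over the 6 samples, and all 3 were among sodium channel alpha genes (SCN7A and SCN1A, SCN11A and SCN4A, SCN4A and SCN10A). With canonical transcript lengths SCN1A and SCN7A still overlapped, SCN11A, SCN4A and SCN10A did not, and some sodium beta genes did.

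**Figure D1:**
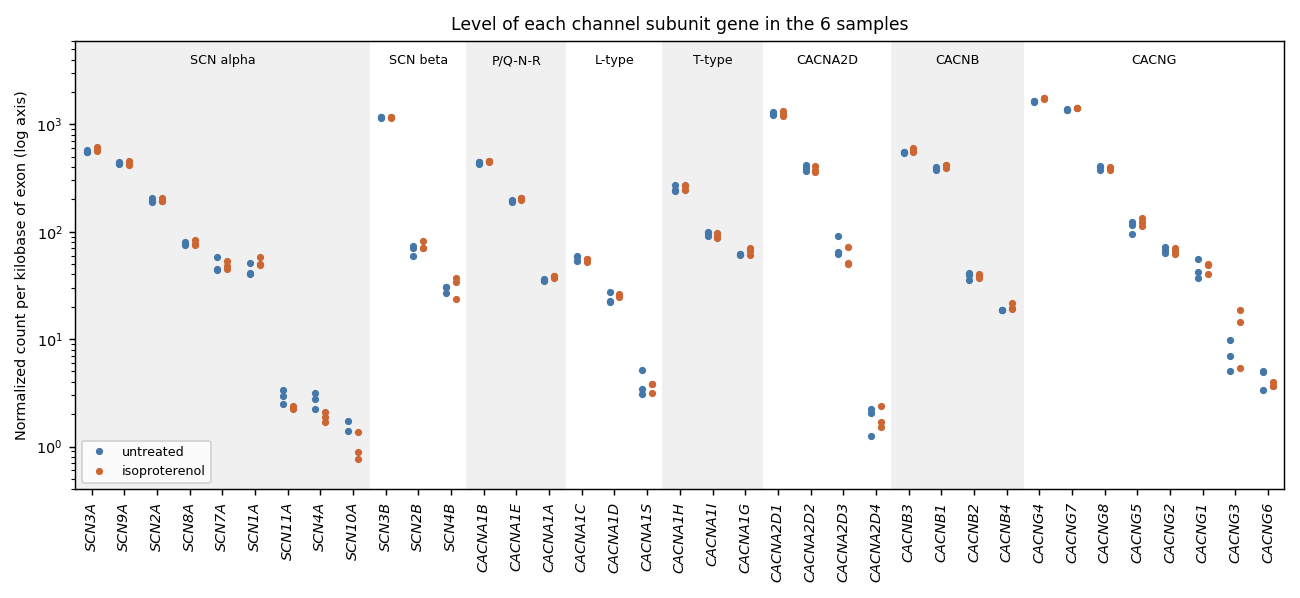
Level of 37 channel subunit genes (normalized count per kilobase of exon, log axis) by subfamily, with 1 point per sample, untreated on the left and isoproterenol on the right of each gene; SCN10A in untreated replicate 3 is at 0 and is not drawn. Levels run from about 1 for SCN10A to 1692 for CACNG4, and the points of the same gene lie close together compared with the distance between most genes.

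Among sodium channel pores, SCN3A (Nav1.3, the form best known from the developing brain) was the most abundant per kilobase, at 570.7 ± 23.8, followed by SCN9A (Nav1.7, known from sensory neurons) at 436.2 ± 13.5, SCN2A (Nav1.2, an axonal channel of excitatory neurons) at 196.0 ± 7.06 and SCN8A (Nav1.6, the main channel of mature axon initial segments) at 78.0 ± 3.31. With canonical transcript lengths SCN2A stood at 538.0, nearer to SCN9A at 623.7 and SCN3A at 725.1, in the same order. SCN3A made up 40.5% (33.1% with canonical lengths) of the summed alpha level and SCN1A (Nav1.1, prominent in inhibitory interneurons) 3.44%. SCN7A, which encodes a sodium channel gated by sodium itself rather than by voltage, was at 49.0 ± 5.96, next to SCN1A at 48.4 ± 6.68. Their ranges over all samples, treated and untreated together, overlapped, and the difference between them within samples was not tested. With canonical lengths SCN1A stood above SCN7A, at 76.9 against 63.9, and their ranges still overlapped. SCN11A, SCN4A (the skeletal muscle channel) and SCN10A (Nav1.8, known from sensory neurons) were each under 3 per kilobase, with 0 to 40 reads per library.

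SCN3B dominated the sodium beta subunits with 1165 ± 13.9 per kilobase, 91.2% of their sum. SCN2B and SCN4B were lower, at 71.5 ± 7.45 and 30.6 ± 4.91.

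Of the presynaptic calcium channel pores, CACNA1B (Cav2.2, N-type) reached 445.0 ± 9.28 per kilobase, CACNA1E (Cav2.3, R-type) 197.8 ± 6.06 and CACNA1A (Cav2.1, P/Q-type) 36.9 ± 1.68. CACNA1A also has a very long union of exons. With canonical transcript length its level was 184.3 rather than 36.9, against 449.8 for CACNA1B and 265.3 for CACNA1E, so the order was kept while the gap narrowed. Of the L-type pores, CACNA1C (Cav1.2) was at 55.7 ± 2.56, CACNA1D (Cav1.3) at 24.9 ± 2.12 and CACNA1S (the skeletal muscle channel) at 3.75 ± 0.769. All were below CACNA1B and CACNA1E, but CACNA1C stood above CACNA1A on this scale. With canonical lengths CACNA1C was at 103.5, below CACNA1A. Among the T-type pores, which open at low voltage, CACNA1H (Cav3.2) led at 257.1 ± 15.03, above CACNA1I at 94.2 ± 4.71 and CACNA1G at 63.7 ± 3.95.

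CACNA2D1, whose product is a binding target of gabapentin, was at 1261 ± 48.5 per kilobase and made up 73.5% of the alpha2delta level, and CACNA2D2 stood at 386.6 ± 25.8. CACNA2D3 was at 65.6 ± 15.4 and CACNA2D4 at 1.86 ± 0.443. CACNB3 at 560.6 ± 20.3 and CACNB1 at 399.1 ± 15.9 held 55.1% and 39.2% of the beta level, while CACNB2 and CACNB4 were at 38.9 ± 2.05 and 19.4 ± 1.26. With canonical lengths, CACNB4 (87.7) stood above CACNB2 (71.1). CACNG4 and CACNG7, at 1692 ± 59.5 and 1396 ± 33.2, were the most abundant genes of the whole family on this scale. With canonical lengths SCN3B was highest at 2055, followed by CACNG4 at 1692, CACNA2D1 at 1532 and CACNG7 at 1453. CACNG8, a hippocampal AMPA receptor regulator, was at 392.2 ± 13.9. CACNG5, CACNG2 (stargazin) and CACNG1 (the muscle gamma subunit) were at 117.6 ± 13.2, 67.1 ± 3.85 and 45.8 ± 6.88. CACNG3 and CACNG6 were at 10.1 ± 5.51 and 4.12 ± 0.712.

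Differences in channel transcripts with isoproterenol were small. In the test without replicate pairs (limma on log2(normalized count + 1), two-sided, Benjamini-Hochberg over 18130 genes), 0 of 39 genes passed FDR 0.05, against 0.0165% of all genes tested (3 genes). At an unadjusted p under 0.05 there were 3 channel genes (SCN1A, CACNG4 and CACNA1A), or 7.69%, against 7.68% of all genes. Without pairs, edgeR and DESeq2 also called 0 of 39, with 3 and 1 at an unadjusted p under 0.05. In the 30 genes reported here that averaged 50 normalized counts or more, log2 fold changes lay between -0.33 and 0.26. The 95% interval of the change lay within 0.25 on the log2 scale (1.19-fold) in either direction for 22 of the 39 genes, and for 35 it excluded both a doubling and a halving.

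Same-numbered samples varied together, with deviations from the group means that correlated at 0.269, 0.493 and 0.388 in pairs 1 to 3 over 11587 genes. In 29 of the 39 channel genes (74.4%, against 76.6% of all genes) the range between replicate numbers was larger than the treatment difference. Such a range can exceed a difference without any replicate effect, so this count does not show that the pairs varied together. With the replicate number as a block, 4 of 39 channel genes (10.3%) passed FDR 0.05 against 4.88% of all genes. SCN1A, CACNG4 and CACNG5 were higher (3 of 39, or 7.69%, against 2.82% of all genes) and CACNA2D3 was lower (1 of 39, or 2.56%, against 2.06%). At an unadjusted p under 0.05 in that fit there were 10 channel genes (25.6%, against 16.2% of all genes). With the block, edgeR called the same 4 genes, and DESeq2 called 0, with these 4 at an unadjusted p under 0.05. By role, 1 of 19 pore genes and 3 of 20 auxiliary genes passed FDR 0.05 in limma with the block. Of the 8 CACNG genes 2 passed, so CACNA2D3 was the only call among the other auxiliary genes.

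**Figure D2:**
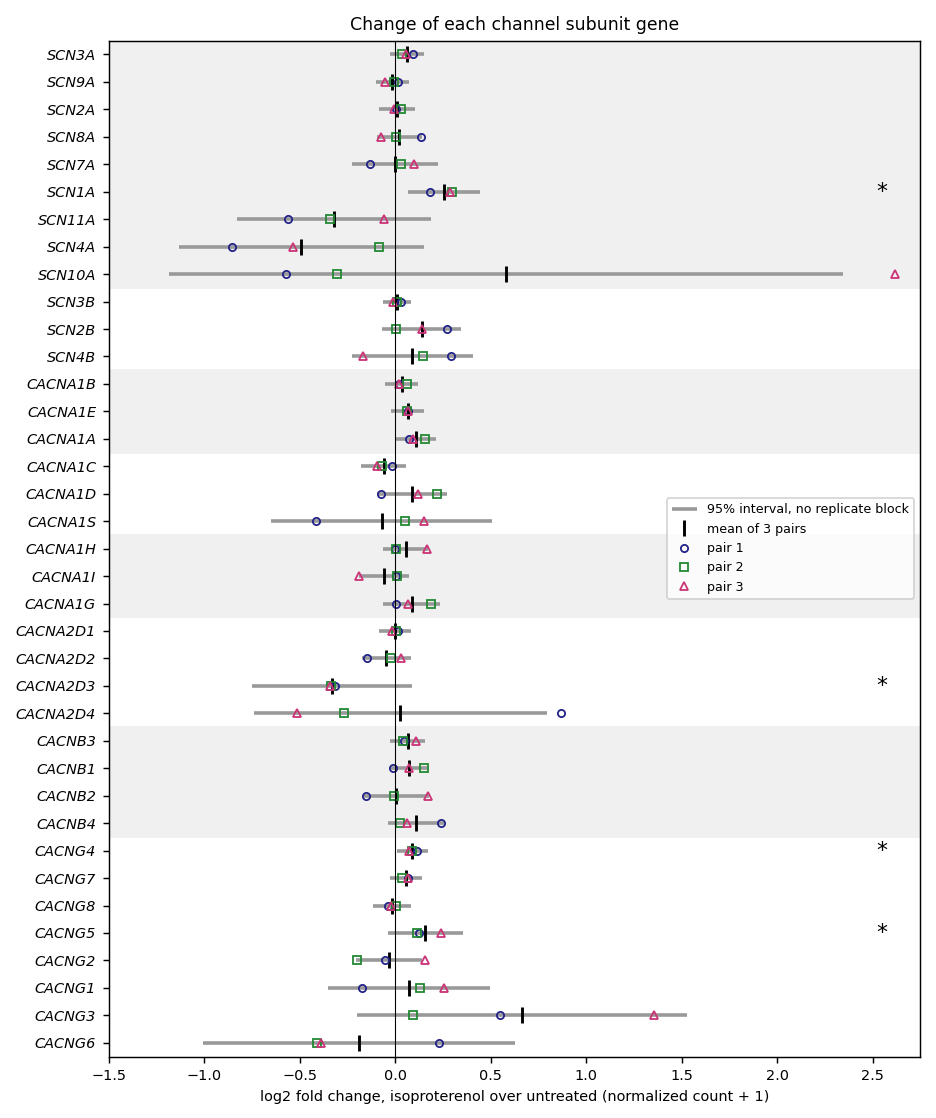
Log2 fold change (isoproterenol over untreated, normalized count + 1) of 37 channel subunit genes by subfamily, with the 3 same-numbered pairs as symbols, their mean as a black tick and the 95% interval without the replicate block as a gray bar; stars mark the 4 genes past FDR 0.05 with the block. Most means lie close to 0, and the wide intervals belong to genes with few reads such as SCN10A and CACNG3.

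SCN1A (ENSG00000144285; chr2:165984641-166149214, GRCh38) encodes Nav1.1. Untreated replicates 1 to 3 held 969.0, 760.6 and 785.2 normalized counts of it, and isoproterenol replicates 1 to 3 held 1101, 934.1 and 958.1. Each treated sample lay above its untreated partner, but the groups overlapped, because untreated replicate 1 exceeded treated replicates 2 and 3. The mean went from 838.2 ± 113.9 to 997.6 ± 90.0 (SD, n = 3), a fold of 1.19 with a 95% interval of 1.05 to 1.36, or 1.11 to 1.28 with the block. The log2 fold change was 0.26 (SE 0.089), and 0.18, 0.30 and 0.29 in pairs 1 to 3. The limma adjusted p was 0.528 without pairs and 2.68e-04 with the block. With the block, it was 1.84e-04 in edgeR, 0.134 in DESeq2, and between 6.19e-04 and 0.0113 in limma with each pair left out in turn.

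SCN1A exons share 1631 bases with SCN1A-AS1, an antisense RNA, and whether counting used the strand is not stated in the sources used here. SCN1A-AS1 itself was at 0 to 6.21 normalized counts in every sample. SCN1A lies on chromosome 2 between SCN2A and SCN9A, in a run of 5 sodium channel genes that also holds SCN3A and SCN7A. The neighbours showed log2 fold changes of 0.06 for SCN3A, 0.01 for SCN2A, -0.02 for SCN9A and 0.00 for SCN7A, none past FDR 0.05 with or without the block. The ratio of SCN1A to SCN2A within a sample, which does not depend on scaling, was 0.197, 0.168 and 0.169 untreated and 0.223, 0.201 and 0.206 treated. These groups did not overlap (difference in log2 ratio 0.24, two-sided exact permutation p 0.1, the smallest that 3 samples against 3 allow). The ratio to SCN9A was 0.154, 0.127 and 0.129 against 0.174, 0.157 and 0.163 (difference 0.27, exact permutation p 0.1). Against SCN3A, it was 0.145, 0.12 and 0.123 untreated and 0.155, 0.144 and 0.145 treated. The groups of this last ratio overlapped, since untreated replicate 1 exceeded treated replicates 2 and 3 (difference 0.19, exact permutation p 0.3). These ratios were among 7 chosen after the values were seen.

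SCN3A (chr2:165087526-165204050), the most abundant sodium pore, was at 6663, 6351 and 6362 normalized counts untreated and 7096, 6502 and 6627 treated. It was higher in all 3 pairs, but untreated replicate 1 lay above treated replicates 2 and 3 (log2 fold change 0.06, SE 0.042; limma adjusted p 0.775, and 0.151 with the block). SCN2A, SCN9A and SCN8A had 95% intervals between -0.10 and 0.14 on the log2 scale. SCN11A and SCN4A had groups that did not overlap, with every treated value lower, at 27.9 to 29.7 against 31.0 to 41.8 normalized counts and 13.97 to 17.3 against 18.4 to 26.1. These are differences of a few reads per library, and neither gene passed FDR 0.05 (limma adjusted p with the block 0.607 and 0.511). SCN11A also shares 61 exonic bases with WDR48 on the other strand. WDR48 was at 1769 to 2201 normalized counts and was lower too (log2 fold change -0.13, limma adjusted p 0.0220 with the block), and its part in the SCN11A value was not tested. SCN10A, the gene with the fewest reads, was listed at 0 in untreated replicate 3 and at 5.13 in its treated partner, and this pair alone gave its log2 fold change of 0.58 (SE 0.81) a positive sign.

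SCN3B (chr11:123629187-123655244), the main sodium beta gene, was at 11602, 11730 and 11577 normalized counts untreated and 11839, 11822 and 11499 treated. Its log2 fold change was 0.01 (SE 0.034), and its interval of -0.06 to 0.08 was the narrowest of the family. SCN2B was higher in each pair, with a log2 fold change of 0.14 (SE 0.098), and SCN4B in 2 of 3.

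All 3 presynaptic calcium pores were higher in every pair. CACNA1A (chr19:13206442-13633025) was at 1534, 1499 and 1567 normalized counts untreated and 1615, 1671 and 1674 treated, without overlap (log2 fold change 0.11, SE 0.051; limma adjusted p 0.636, and 0.111 with the block). CACNA1E (chr1:181317690-181813262) was at 4301, 4315 and 4155 untreated and 4509, 4500 and 4354 treated. Its groups did not overlap either (log2 fold change 0.07, SE 0.041; limma adjusted p 0.744, and 0.190 with the block). CACNA1B (chr9:137877782-138124624) was at 4405, 4229 and 4424 untreated and 4470, 4411 and 4485 treated, and these groups overlapped (log2 fold change 0.03, SE 0.041). The summed level per kilobase of all 3 was 658.0 to 676.0 untreated and 688.8 to 693.9 treated. Such sums overlapped between groups for the sodium alpha, sodium beta, L-type, T-type and CACNA2D genes. They did not overlap for the CACNB and CACNG genes.

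The L-type and T-type pores showed no shared direction. CACNA1C (chr12:1970772-2697950), which couples depolarization to transcription in neurons, was at 1363, 1477 and 1519 normalized counts untreated and 1348, 1409 and 1420 treated. It was lower in all 3 pairs with overlapping groups (log2 fold change -0.06, SE 0.056; limma adjusted p 0.841). CACNA1D was higher in 2 pairs (log2 fold change 0.09, SE 0.088), and shares 1399 exonic bases with CHDH on the other strand, a gene at 3.13 to 10.6 normalized counts. CACNA1H (chr16:1153106-1221771) was at 2119, 2338 and 2065 untreated and 2114, 2346 and 2314 treated, so the difference came from pair 3 (log2 fold change 0.06, SE 0.056). CACNA1I and CACNA1G had log2 fold changes of -0.06 (SE 0.062) and 0.09 (SE 0.072).

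CACNA2D3 (ENSG00000157445; chr3:54122552-55074557), an alpha2delta gene, was at 295.5, 432.5 and 305.2 normalized counts untreated and at 237.5, 342.5 and 241.1 treated. Replicate 2 was high in both groups, so the groups overlapped, while each treated sample was lower than its partner by nearly the same amount. The pairs gave log2 fold changes of -0.31, -0.34 and -0.34, with a mean of -0.33 (SE 0.18) and a fold of 0.796 (95% interval 0.596 to 1.06, or 0.706 to 0.897 with the block). The limma adjusted p was 0.722 without pairs and 0.00962 with the block. It was 0.00669 in edgeR and 0.466 in DESeq2, both with the block. Leaving out pair 1, 2 or 3 gave 0.0414, 0.0769 and 0.0595 in limma with the block.

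The more abundant alpha2delta genes showed smaller differences. CACNA2D1 (chr7:81946444-82443956) was at 12022, 11492 and 11164 normalized counts untreated and 12134, 11508 and 11028 treated (log2 fold change 0.00, SE 0.041, 95% interval -0.09 to 0.08). CACNA2D2 had a log2 fold change of -0.05 (SE 0.060). The ratio of CACNA2D3 to CACNA2D1 differed by -0.33, -0.34 and -0.32 on the log2 scale in pairs 1 to 3, although the groups overlapped (two-sided exact permutation p 0.3). CACNA2D3 shares 256 exonic bases with antisense RNAs. CACNA1D, the pore gene 308.8 kilobases away on the same chromosome, had a mean of the opposite sign and did not pass the test, as given above.

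All 4 beta genes had positive means, from 0.00 to 0.11 on the log2 scale. CACNB3 (chr12:48813794-48828941), whose product is an intracellular subunit that brings pores to the membrane, was at 3940, 3858 and 3960 normalized counts untreated and 4062, 3967 and 4274 treated, without overlap (log2 fold change 0.06, SE 0.043; limma adjusted p 0.766, and 0.219 with the block). CACNB4 (chr2:151832771-152099167) was at 666.2, 675.4 and 668.3 untreated and 786.3, 686.2 and 698.5 treated. Its groups did not overlap either, with treated replicate 1 well above the rest (log2 fold change 0.11, SE 0.070; limma adjusted p 0.750, and 0.364 with the block). CACNB4 exons share 2168 bases with another gene on the same strand. CACNB1 was higher in 2 of 3 pairs (log2 fold change 0.07, SE 0.047), and CACNB2 showed 0.00 (SE 0.083).

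CACNG4 (ENSG00000075461; chr17:66964707-67033398), an AMPA receptor regulator, was at 5817, 5858 and 5943 normalized counts untreated and at 6293, 6226 and 6239 treated. The groups did not overlap, and the replicates lay close together. The mean went from 5873 ± 64.2 to 6253 ± 35.6 (SD, n = 3), a log2 fold change of 0.09 (SE 0.038) and a fold of 1.06 (95% interval 1.01 to 1.12, or 1.03 to 1.102 with the block). The limma adjusted p was 0.596 without pairs and 0.0164 with the block. It was 0.0138 in edgeR and 0.566 in DESeq2, both with the block, and 0.194, 0.0830 and 0.0663 in limma with the block when pair 1, 2 or 3 was left out.

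CACNG5 (ENSG00000075429; chr17:66835117-66894751), its neighbour and another regulator of AMPA receptors, was at 1306, 1213 and 1014 normalized counts untreated and at 1424, 1311 and 1196 treated. Each treated sample exceeded its partner, while the groups overlapped. The log2 fold change was 0.16 (SE 0.090), and 0.12, 0.11 and 0.24 in pairs 1 to 3 (fold 1.12, 95% interval 0.973 to 1.28, or 1.05 to 1.19 with the block). The limma adjusted p was 0.722 without pairs and 0.0207 with the block, with 0.0202 in edgeR and 0.690 in DESeq2 with the block. Leaving out pair 1, 2 or 3 gave 0.0586, 0.0338 and 0.333 in limma with the block. CACNG4 and CACNG5 lie 69.96 kilobases apart on chromosome 17, next to CACNG1, which had a log2 fold change of 0.07 (SE 0.20).

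**Figure D3:**
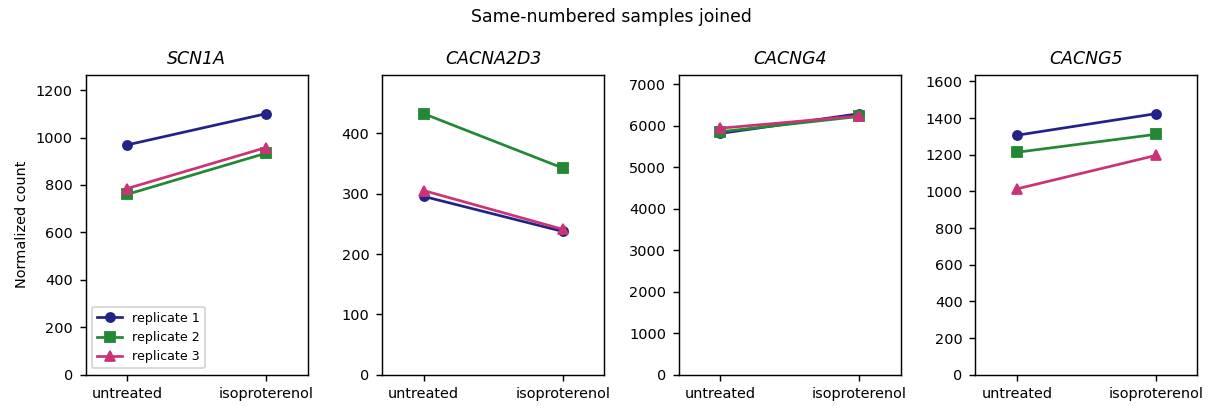
Normalized counts of SCN1A, CACNA2D3, CACNG4 and CACNG5, the 4 channel genes past FDR 0.05 with the replicate block, with a line joining the untreated and isoproterenol samples of the same number. Every SCN1A, CACNG4 and CACNG5 line goes up and every CACNA2D3 line goes down. For SCN1A, CACNA2D3 and CACNG5 the range between replicate numbers (log2 scale, groups averaged) exceeds the mean change. Some lines of SCN1A and CACNA2D3 lie close together.

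CACNG7 (chr19:53909278-53943950), a regulator of AMPA receptors that is abundant here, was at 3875, 3993 and 3901 normalized counts untreated and 4062, 4095 and 4084 treated, without overlap (log2 fold change 0.06, SE 0.041; limma adjusted p 0.783, and 0.312 with the block). CACNG8, its neighbour, showed -0.02 (SE 0.047). The ratio of CACNG4 to CACNG8 was 1.62, 1.77 and 1.66 untreated and 1.8, 1.87 and 1.77 treated, and higher in every pair. Its groups met at 1.77 after rounding without overlapping (exact permutation p 0.1). The summed CACNG level per kilobase was 3636 to 3641 untreated and 3779 to 3837 treated, most of it from CACNG4 and CACNG7. CACNG3 had the largest log2 fold change of the auxiliary genes, 0.66 (SE 0.41), on 9 to 35 reads per library, and CACNG2 shares 2046 exonic bases with another transcript on the same strand.

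The median log2 fold change was 0.02 for the 19 pore genes and 0.06 for the 20 auxiliary genes, against 0.00 for all 18130 genes tested. In pairs 1 to 3 the pore median was 0.01, 0.03 and 0.06 and the auxiliary median 0.06, 0.02 and 0.07, so the auxiliary median was not above the pore median in every pair, and the difference between the classes was not tested. Without the CACNG genes, the auxiliary median was 0.05 over 12 genes, and without SCN7A the pore median was 0.03. Without isoproterenol replicate 1, the pore median was -0.0194. By ion, the medians were 0.02 for sodium and 0.06 for calcium channel genes. In 14 of 39 channel genes (35.9%, against 18.5% of all genes) the treated sample was higher in all 3 pairs, 6 of them pore and 8 auxiliary genes. In 4 (10.3%, against 17.6%) it was lower in all 3, namely SCN11A, SCN4A, CACNA1C and CACNA2D3. Groups did not overlap for 8 genes (20.5%, against 12.9%). Of these, 6 were higher (15.4%, against 6.73%) and 2 lower (5.13%, against 6.19%).

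Partners of the channels were taken from a list of 38 genes whose products bind or regulate them, of which 36 were tested. The list was chosen with earlier results of these data known, so its shares of calls are a description and not a test. HVCN1 fell below the limit on low values, and REM1 was not analysed here. Without pairs, 0 of 36 passed FDR 0.05 (limma; edgeR and DESeq2 also 0), with 7, 6 and 3 at an unadjusted p under 0.05. With the block, 7 of 36 (19.4%, against 4.88% of all genes) passed in limma, 6 in edgeR and 2 in DESeq2. Of the 7, 5 were higher (13.9%, against 2.82%) and 2 lower (5.56%, against 2.06%). The list's median log2 fold change was 0.04.

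GEM, a small GTPase known to inhibit calcium channels through the beta subunit, changed most. It was at 152.5, 92.9 and 167.6 normalized counts untreated and 255.4, 229.5 and 434.9 treated, without overlap. Its log2 fold change was 1.14 (SE 0.34 without the block), and 0.741, 1.296 and 1.371 in pairs 1 to 3. In limma the adjusted p was 0.582 without pairs and 1.81e-14 with the block, where the SE was 0.1103. That SE is drawn toward a trend over all genes tested, so the p-value with the block does not rest on the spread of these pairs alone. CABP1, a calmodulin-like calcium sensor of these channels, went from 59.5, 57.1 and 69.3 to 89.8, 84.2 and 100.5 normalized counts, also without overlap (log2 fold change 0.56, SE 0.17; limma adjusted p 0.405, and 0.0393 with the block). GEM passed in DESeq2 with the block as well, and CABP1 did not. The members past FDR 0.05 that anchor or remove channels were higher by little. The log2 fold changes were 0.07 (SE 0.038) for ANK2, an ankyrin, 0.06 (SE 0.054) for the spectrin SPTBN1 and 0.10 (SE 0.046) for NEDD4L, a ubiquitin ligase that targets sodium channels. Their limma adjusted p-values with the block were 9.62e-04, 0.0134 and 0.0177. With the block, edgeR called ANK2 and NEDD4L but not SPTBN1, and DESeq2 called none of the 3. Other members of this kind differed in sign, and none passed in limma with the block. NEDD4, another ubiquitin ligase, had a log2 fold change of -0.28 (SE 0.15) and NFASC -0.04 (SE 0.040), both lower in all 3 pairs. SPTBN4, CNTN1 and ANK3 had positive means.

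CALM2, a gene for calmodulin, the calcium sensor bound by both channel types, was at 24891, 24194 and 23868 normalized counts untreated and 21998, 23251 and 21257 treated. It was lower without overlap, with a log2 fold change of -0.13 (SE 0.036) and a limma adjusted p of 0.273 without pairs and 2.45e-08 with the block. It also passed in DESeq2 with the block. Near-identical copies could take some of its reads, so its level is uncertain. ANK3, the ankyrin that gathers sodium channels at the axon initial segment, was higher without overlap (log2 fold change 0.06, SE 0.036) but did not pass, with a limma adjusted p of 0.0956 with the block.

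**Figure D4:**
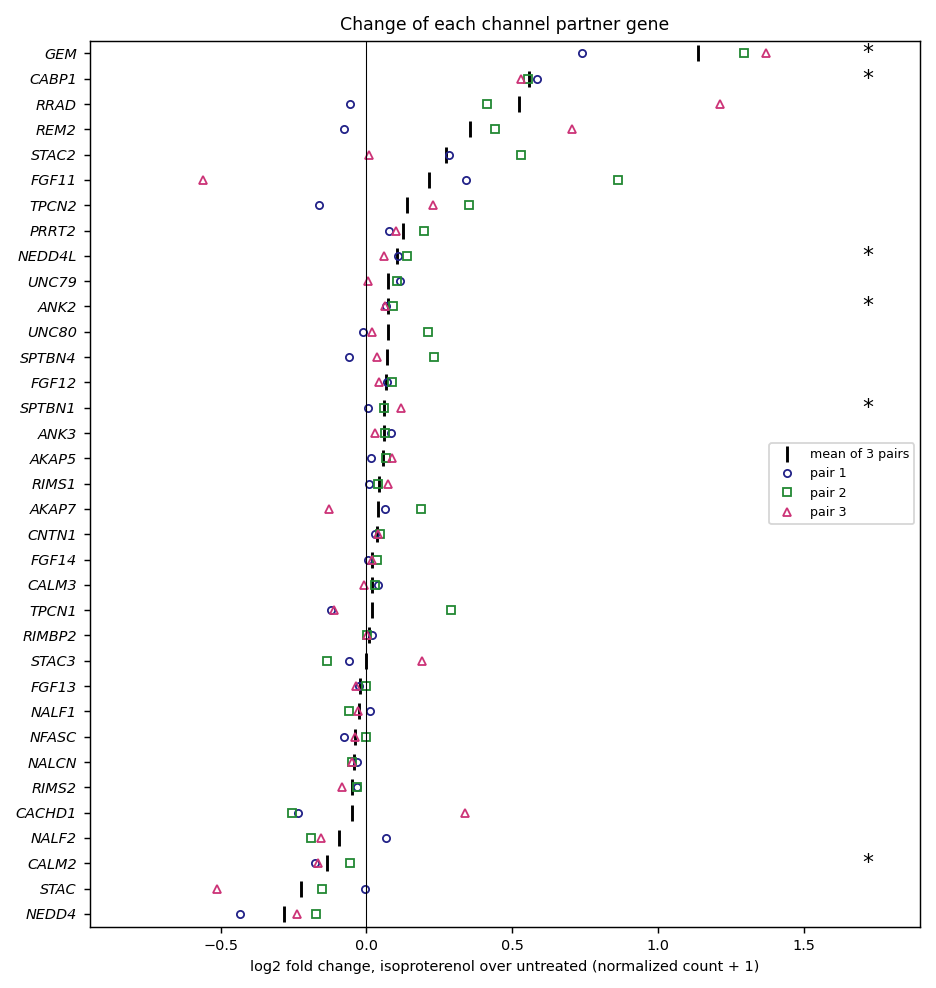
Log2 fold change (isoproterenol over untreated, normalized count + 1) of 35 channel partner genes tested, ordered by the mean, with the 3 pairs as symbols and the mean as a black tick; stars mark the 6 of them past FDR 0.05 with the replicate block. GEM at 1.14 has the highest mean, CABP1 at 0.56 has pairs that lie close together, and most other means are near 0.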

How the data were processed

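Poly(A) RNA from 6 iNeuron samples was sequenced after directional library preparation. The authors checked reads with FastQC, aligned them to GRCh38 with STAR, counted them per gene with featureCounts (the submitters' processing notes also name Subread) and deposited normalized counts, a signal per gene made by dividing its read count by a DESeq2 size factor for the sample. The annotation release and strand setting are not given in the sources used here. In every column 100% of values were whole multiples of a single step (tolerance 0.01 read), so whole reads were recovered.

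Groups and replicate numbers came from sample titles. Of 19823 genes, the 18130 that exceeded 5 reads in 4 samples or more (the study's limit) were tested with limma 3.58.1 in R 4.3.3 (trend, robust) on log2(normalized count + 1), a scale that understates changes of low genes. Benjamini-Hochberg adjustment ran over all of these. In limma the variance of each gene is drawn toward a trend over all genes tested. Its p-values, with or without the block, thus do not rest on the spread of that gene alone. Same-numbered samples were taken as pairs because their deviations from the group means correlated at 0.269, 0.493 and 0.388 over 11587 genes (other combinations -0.351 to 0.00584). The replicate block, edgeR 4.0.16 and DESeq2 1.42.0 were alternatives, along with other scalings, pseudocounts, filters and left-out samples. The block with another scaling, pseudocount or filter, or with a pair left out, and canonical transcript lengths were added after seeing the data. Fits were tested on simulated data with planted changes larger than those of the called channel genes, so that test does not cover changes of their size. Positions and exon lengths came from GENCODE 44, which held 99.6% of gene identifiers.

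Members and lists were chosen with earlier results of these data known. Values per sample are given for RBM12, for channel genes with an unadjusted p under 0.05, past FDR 0.05 with the block, without overlap at a mean of at least 50, or most abundant per length in a subfamily, and for partners past FDR 0.05. A few genes at low counts were named after their values were seen. A few genes are counted in the totals but not reported here singly.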

Additional observations from a re-analysis of the deposited data

How the results depend on the processing

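The counts of calls depended on the replicate block and on the tool. All genes past FDR 0.05 numbered 3 in limma without pairs, 885 with the replicate block, 977 in edgeR with the replicate block, 23 in DESeq2 and 139 in DESeq2 with the replicate block. Channel subunit genes went from 0 to 4 with the replicate block in limma and also to 4 in edgeR, and partner genes from 0 to 7, 6 in edgeR and 2 in DESeq2, each with the replicate block. The 4 subunit calls under the block became 0 in DESeq2, and 2, 2 and 1 without pair 1, 2 and 3, and stood at 4 under the other scalings, pseudocount and filter tried with the block. SCN1A was called in every limma and edgeR fit with the block. With 1 sample left out and no block, all genes past FDR 0.05 ran from 2 to 67 (67 without isoproterenol replicate 2), partner genes from 0 to 1 (1 without isoproterenol replicate 2), and channel subunit genes stayed at 0. The pore median was lowest, at -0.0194, without isoproterenol replicate 1, and highest, at 0.0598, without untreated replicate 1. CACNA2D1, close to no change, turned to 0.00297 with total-read scaling and spanned -0.0364 to 0.0325 over the fits that omit 1 sample. With 1 sample left out, the log2 fold change ran from 0.18 to 0.36 for SCN1A, -0.50 to -0.15 for CACNA2D3 (-0.15 without untreated replicate 2), 0.05 to 0.24 for CACNG5 (0.05 without untreated replicate 3) and 0.08 to 0.10 for CACNG4. The cause of these differences between settings was not tested. Genes with fewer than 50 normalized counts (7 of 39) are limited by depth.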
